A study of Mus musculus with 69 samples.

Results

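The genes described here are 45 genes of the cell cycle and of DNA replication, taken by gene symbol from the 24411 rows of the count matrix. All 45 were found, and all 45 were among the 21175 genes that were tested, those whose counts summed to 2 or more over the 69 libraries. By role they fall into origin licensing (Mcm2, Mcm3, Mcm4, Mcm5, Mcm6, Mcm7, Cdc6, Cdt1, Gmnn), the replication fork and nucleotide supply (Pcna, 2810417H13Rik, Rrm1, Rrm2, Tk1, Tyms, Uhrf1), G1/S cyclins and transcription factors (Ccne1, Ccne2, E2f1, Foxm1), mitotic cyclins and kinases (Ccna2, Ccnb1, Ccnb2, Cdk1, Plk1, Aurka, Aurkb), chromosome structure (Mki67, Top2a), the centromere, kinetochore and spindle checkpoint (Bub1, Bub1b, Cenpa, Cenpe, Cenpf, Birc5, Cdca8), the spindle and cytokinesis (Kif11, Kif20a, Kif23, Nusap1, Tpx2, Prc1), and mitotic ubiquitin ligase partners (Cdc20, Ube2c, Cdca3). A further 94 genes of the cell cycle were followed beside them.

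Before a cell copies its DNA, CDC6 and CDT1 load the MCM helicase onto origins, and E2F transcription factors with cyclin E drive entry into S phase. In S phase PCNA clamps the polymerases to the template, ribonucleotide reductase and thymidylate synthase supply nucleotides, and UHRF1 carries DNA methylation onto the new strand. In G2 and mitosis cyclins A and B with CDK1, the Aurora and Polo kinases, the kinetochore and the spindle motors divide the chromosomes. The adult renal tubule divides slowly and re-enters the cycle after injury, so transcripts of these genes are commonly read as a measure of proliferation.

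The study asked whether kidney cells of one segment answer 2 kinds of acute kidney injury with different transcripts. All mice carried Uprt, a Toxoplasma gondii uracil phosphoribosyltransferase inserted at Rosa26 behind a floxed stop, with a Cre driver (genotypes Hoxb7Cre;UPRTf/+ and, spelled so in the labels, Atp6b1v1Cre;UPRTf/+, the Atp6v1b1Cre driver). Hoxb7Cre acts in the collecting duct and Atp6v1b1Cre in intercalated cells and their derivatives, and RNA that cells with the enzyme made during a 4 hours pulse of 4-thiouracil (4-TU, 430 mg/kg) was biotinylated and pulled down. Mice were untreated controls, were studied 24 hours after 10 minutes of clamping of both renal arteries (ischemia, iAKI in the labels), or were studied after 72 hours without food and water (volume depletion, vAKI). The 69 libraries are 48 pulldowns and 21 whole-kidney total RNA libraries of control mice. Hoxb7Cre pulldowns at 5.5 months came from 4 male and 4 female controls, 4 males and 3 females after ischemia, and 3 males and 4 females after volume depletion. Atp6v1b1Cre pulldowns at that age came from 4 male and 4 female controls, 3 males and 3 females after ischemia, and 4 males and 3 females after volume depletion. Controls of 3 months were 2 female Hoxb7Cre and 3 male Atp6v1b1Cre pulldowns, and the total RNA came from 8 males and 8 females of 5.5 months and 3 males and 2 females of 3 months. The labels do not say that each library is a different mouse, so the p-values measure the spread between libraries. For male pulldowns of 5.5 months, the paper's counts of control, ischemic and volume depleted mice equal the counts of libraries. The control pulldowns match the total RNA libraries in number, genotype, sex and age. They may come from the same mice, which the labels do not say.

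Libraries held 12618062 to 30305464 counts, with a median of 20868430. Summed over 5 principal cell markers, male Hoxb7Cre control pulldowns of 5.5 months held 2608 to 3322 CPM (counts on a common per-library scale, taken on the TMM-normalized library size) and female ones 1045 to 2345 CPM, against 607 to 1102 CPM in total RNA, so that female control 6 lay within the range of total RNA. Proximal tubule markers were lower in every control pulldown than in any total RNA library. The pulldowns still held RNA of other cells at measurable levels, and in them fewer cells of a type and less RNA per cell cannot be told apart. Here a call means that a gene passed both thresholds in edgeR's quasi-likelihood test, an adjusted p below 0.05 and a log2 fold change of 1 or more either way. The methods name default counting settings and do not say whether the library kit marked strand, and 13 of the 45 genes share exon sequence with another annotated gene, so their counts are uncertain. Of the genes named most often below, these are Ube2c (22.8% of exon length, with Tnnc2), Ccne2 (17.4%, Ints8), Ccna2 (12.5%, Exosc9), Cdca8 (4.48%) and Top2a (1.35%).

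Promoter sequence of 37 of the 45 genes was found in RefSeq (build GRCm38.p6), 2810417H13Rik under its current symbol Pclaf. No entry was found for Mcm4, Gmnn, Ccne2, Foxm1, Ccna2, Aurkb, Kif20a and Tpx2. From 250 bases before to 50 bases after each start, 3 sets of letters were searched on both strands: an E2F set (TTTGGCGC, TTTCCCGC, TTTGCCGC, TTTCGCGC), a CHR set (TTTGAA and also TTCGAA), and the letters CCAAT. The E2F letters were in 9 of 37 genes (24.3%) against 2.6% of 27025 genes with a promoter, the CHR letters in 19 (51.4%) against 21.7%, and CCAAT in 29 (78.4%) against 41.1%. They fell unevenly over the roles. E2F letters were in 6 of 7 origin licensing genes, 2 of 7 replication fork genes and 0 of 2 G1/S genes. CHR letters were in 4 of 5 mitotic cyclins and kinases, 2 of 7 origin licensing genes and 0 of 7 replication fork genes. A match is a description of letters, not of a bound site.

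The 250 bases before the start are shown for 4 genes that were higher after ischemia or volume depletion and hold E2F letters, written 5′ to 3′ on the gene's strand with every match in capitals. Mcm5 lies at chr8:75109259-75109508 (plus strand) and holds 2 overlapping E2F matches read from opposite strands, Cdc6 at chr11:98907901-98908150 (plus), 2810417H13Rik at chr9:65890073-65890322 (plus), where the E2F match runs on past the start and only its first letters show, and the second listed start of Uhrf1 at chr17:56304063-56304312 (plus).
Mcm5: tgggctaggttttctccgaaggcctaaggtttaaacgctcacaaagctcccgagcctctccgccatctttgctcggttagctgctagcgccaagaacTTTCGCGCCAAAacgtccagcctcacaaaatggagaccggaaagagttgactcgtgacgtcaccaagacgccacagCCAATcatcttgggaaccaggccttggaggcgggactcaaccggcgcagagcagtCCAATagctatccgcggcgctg
Cdc6: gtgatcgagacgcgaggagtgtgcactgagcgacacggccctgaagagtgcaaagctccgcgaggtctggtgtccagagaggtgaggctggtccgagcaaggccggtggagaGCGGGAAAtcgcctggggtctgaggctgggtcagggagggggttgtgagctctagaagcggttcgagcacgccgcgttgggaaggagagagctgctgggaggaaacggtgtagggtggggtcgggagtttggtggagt
2810417H13Rik: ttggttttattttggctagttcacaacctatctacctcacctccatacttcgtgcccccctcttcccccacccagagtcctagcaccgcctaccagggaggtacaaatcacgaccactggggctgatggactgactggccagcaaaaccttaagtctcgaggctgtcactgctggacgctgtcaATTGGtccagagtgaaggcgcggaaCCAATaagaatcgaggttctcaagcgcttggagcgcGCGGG
Uhrf1: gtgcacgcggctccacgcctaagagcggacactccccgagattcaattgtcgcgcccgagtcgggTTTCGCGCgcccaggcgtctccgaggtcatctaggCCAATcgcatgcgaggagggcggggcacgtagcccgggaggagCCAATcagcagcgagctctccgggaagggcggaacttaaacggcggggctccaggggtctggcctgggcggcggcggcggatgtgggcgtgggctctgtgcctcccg

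The next 4 belong to mitotic genes that differed between the injuries and hold no E2F letters. Mki67 lies at chr7:135716380-135716629 (minus strand) with 2 CHR matches, Top2a at chr11:99024190-99024439 (minus) with 4 CHR and 6 CCAAT matches, Ube2c at chr2:164769679-164769928 (plus) with 1 CHR and 6 CCAAT matches, and Cdca8 at chr4:124936918-124937167 (minus), whose CHR match lies in the 50 bases after the start and is not shown.
Mki67: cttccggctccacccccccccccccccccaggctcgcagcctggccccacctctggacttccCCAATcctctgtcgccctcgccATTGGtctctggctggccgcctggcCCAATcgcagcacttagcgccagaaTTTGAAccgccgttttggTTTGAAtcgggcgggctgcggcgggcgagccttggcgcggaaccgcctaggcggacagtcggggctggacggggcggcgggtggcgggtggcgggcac
Top2a: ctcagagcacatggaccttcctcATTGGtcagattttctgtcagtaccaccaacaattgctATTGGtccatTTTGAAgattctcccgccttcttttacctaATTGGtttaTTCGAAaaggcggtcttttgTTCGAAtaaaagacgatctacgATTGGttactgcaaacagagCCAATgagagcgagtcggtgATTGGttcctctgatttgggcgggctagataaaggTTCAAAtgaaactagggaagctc
Ube2c: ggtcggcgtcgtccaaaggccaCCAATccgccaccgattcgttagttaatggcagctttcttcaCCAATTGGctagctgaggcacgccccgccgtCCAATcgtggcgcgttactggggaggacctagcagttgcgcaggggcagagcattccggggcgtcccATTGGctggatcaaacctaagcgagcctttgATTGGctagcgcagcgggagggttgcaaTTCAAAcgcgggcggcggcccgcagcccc
Cdca8: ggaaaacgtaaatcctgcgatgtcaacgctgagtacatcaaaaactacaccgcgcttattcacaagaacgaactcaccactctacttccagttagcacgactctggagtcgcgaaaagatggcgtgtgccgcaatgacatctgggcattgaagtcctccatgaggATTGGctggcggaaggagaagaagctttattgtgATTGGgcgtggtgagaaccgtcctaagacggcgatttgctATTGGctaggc

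In control pulldowns no cell cycle gene was called different between the drivers, which does not show that their levels are equal. Compared per length, Kif23, a motor of the cytokinetic bridge, was highest in Hoxb7Cre controls at 25.2 ± 5.76 CPM per kilobase of exon (SD, n = 10), ahead of Pcna at 18.2 ± 3.16 and Rrm2 at 7.27 ± 1.67 CPM per kilobase. Mki67, the Ki-67 antigen of dividing cells, had a median of 7.91 CPM in Hoxb7Cre controls (lowest 6.49, highest 17.5), 8.58 CPM in Atp6v1b1Cre controls (6.13 to 11.3) and 5.37 CPM in total RNA (3.06 to 9.63). Ccne1, the cyclin of S phase entry, had medians of 2.99 CPM (0.920 to 4.20), 2.80 CPM (1.10 to 4.80) and 1.99 CPM (0.817 to 3.30) in the same order. For both genes the 3 pools overlapped. In that comparison, Atp6v1b1Cre against Hoxb7Cre, edgeR called 0 of 45 genes, against 4.11% of all genes tested (5 had an unadjusted p under 0.05, DESeq2 called 0, and log2 differences ran from −0.41 to 0.69).

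Against total kidney RNA the pulldowns of both drivers held more transcript of most cell cycle genes and less of a few. In Hoxb7Cre controls 6 of the 45 were called higher and 2 lower (backgrounds 14.6% and 17.9% of all genes), 28 and 7 passed the adjusted p alone (35.6% and 31.1%), and the median log2 difference was 0.52. In Atp6v1b1Cre controls 7 were called higher and 2 lower (11.3% and 16.4%), 27 and 9 passed the adjusted p alone (34.4% and 29.4%), and the median was 0.48. The median over all genes was itself shifted by 0.107 in both, and both comparisons share the 21 total RNA libraries. Pulldown and total RNA libraries were fitted as unpaired. A share of called genes near or under the background is no result about the group.

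Kif23 had a median of 214 CPM in Hoxb7Cre controls (123 to 262), 167 CPM in Atp6v1b1Cre controls (133 to 229) and 54.0 CPM in total RNA (31.7 to 99.4), with no overlap of either pulldown with total RNA. Its log2 difference from total RNA was 1.88 ± 0.11 (SE, adjusted p = 3.78e-19) in Hoxb7Cre and 1.76 ± 0.11 in Atp6v1b1Cre by edgeR's quasi-likelihood test. Cdc6, which loads the helicase at origins, had a median of 3.40 CPM in Hoxb7Cre controls (2.39 to 5.93) and 1.33 CPM in total RNA (0.571 to 2.47), so that the ranges met only at their edges. Top2a, the topoisomerase that untangles chromosomes, had a median of 6.49 CPM in Hoxb7Cre controls (4.69 to 12.8) and 2.81 CPM in total RNA (1.75 to 5.96). The genes called higher with Hoxb7Cre were Kif23, Cdc6 (1.43), Top2a (1.30), Ccne2 (1.30), Cenpf (1.12) and Uhrf1 (1.07). With Atp6v1b1Cre they were Kif23, Ccne2 (1.17), Bub1b (1.15), Uhrf1 (1.14), Ccna2 (1.12), Cdc6 (1.04) and Plk1 (1.04).

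Tyms, thymidylate synthase, was lower in both pulldowns, with a median of 4.53 CPM in Hoxb7Cre (2.55 to 7.93), 4.93 CPM in Atp6v1b1Cre (2.85 to 5.73) and 13.1 CPM in total RNA (6.81 to 19.6). Its log2 difference was −1.25 (adjusted p = 1.92e-09) and −1.45. Ube2c, the ubiquitin-conjugating enzyme of mitotic exit, was the other gene called lower, by −1.33 and −1.14, although its total RNA libraries ran from 0.571 to 7.52 CPM and overlapped with the Hoxb7Cre pulldowns (0.328 to 2.73 CPM). In Atp6v1b1Cre its difference was −0.58 in males alone, where the call was lost, and −1.96 in females alone. Ccne2, the second cyclin E, and Bub1b, the checkpoint kinase BUBR1, had medians of 3.73 and 3.22 CPM in Atp6v1b1Cre controls against 1.74 and 1.69 CPM in total RNA. Of the remaining reference genes, the Hoxb7Cre log2 differences were −0.90 for E2f1, −0.16 for Pcna, −0.14 for Mcm6, 0.00 for Cdk1, 0.28 for Mcm2, 0.52 for Ccne1, 0.53 for Ccnb1, 0.79 for Mki67 and 0.97 for Rrm2, and in Atp6v1b1Cre the reference genes ran from −0.83 for E2f1 to 0.98 for Top2a. By role the Hoxb7Cre medians were −0.02 for origin licensing, 0.29 for the replication fork, 0.84 for the spindle and −0.57 for the ubiquitin ligase partners.

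**Figure D1:**
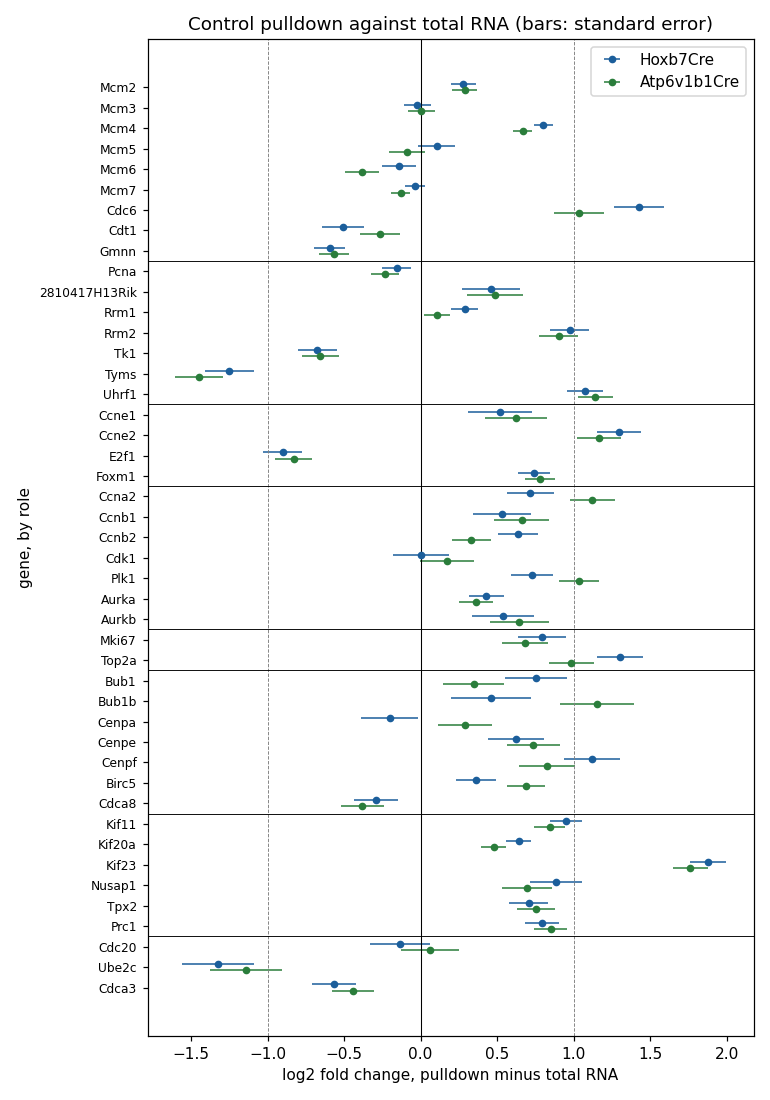
Log2 difference of each of the 45 genes between control pulldown and total kidney RNA (x axis, log2 scale, bars are SE) for Hoxb7Cre and Atp6v1b1Cre. Kif23 stands furthest to the right in both drivers (1.88 and 1.76), and Tyms and Ube2c are called lower in both.

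Of the other 94 cell cycle genes, 13 were called higher and 8 lower in Hoxb7Cre pulldowns (median 0.41, backgrounds 14.6% and 17.9%). In Atp6v1b1Cre pulldowns 8 were called higher and 8 lower (median 0.39, backgrounds 11.3% and 16.4%). Highest in Hoxb7Cre were the checkpoint kinase Chek1 (1.68), Mybl1 (1.59) and Orc1 (1.44), and lowest were Cdkn1c (−2.73), the CDK inhibitor p57, Spc24 (−1.76) and Stmn1 (−1.72). In Atp6v1b1Cre they were Mybl1 (1.71), Chek1 (1.39) and Kif14 (1.20), and Cdkn1c (−2.27), Rfc2 (−1.64) and Stmn1 (−1.57). Cdkn1a, the CDK inhibitor p21, differed from total RNA by 0.35 in Hoxb7Cre and 0.39 in Atp6v1b1Cre, and Ccnd1, cyclin D1, by −0.06 and 0.26, none of which was called. Between the control pulldowns of the drivers they differed by 0.04 and 0.32.

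After ischemia, male Hoxb7Cre pulldowns held more RNA of 2 of 9 origin licensing genes (Cdc6, Mcm3) and of 2 of 7 genes of the replication fork (Uhrf1, 2810417H13Rik), and no gene of another role was called. Of the 45 genes 4 were called higher and 0 lower, against 1.52% and 0.784% of all genes, and 8 and 0 passed the adjusted p alone (3.34% and 2.79% of all genes). Of all 45, 40 had a positive log2 fold change and the median was 0.49, against 0 over all genes tested. By role the medians were 0.73 for origin licensing, 0.25 for the replication fork and 0.72 for G1/S cyclins and transcription factors. They were 0.49 for mitotic cyclins and kinases, 0.80 for chromosome structure and 0.24 for the centromere group.

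Uhrf1 was at 4.42, 4.41, 5.19 and 3.98 CPM in the 4 male controls and at 7.76, 28.3, 7.46 and 20.8 CPM in ischemia libraries 4, 5, 6 and 7. All 4 ischemia libraries lay above all controls, and libraries 5 and 7 lay far above libraries 4 and 6. Its log2 fold change was 1.85 ± 0.32 (SE), with a Benjamini-Hochberg adjusted p = 0.00234 from edgeR. 2810417H13Rik, the PCNA-associated factor, was at 0.843, 1.21, 1.63 and 1.31 CPM in controls and at 1.88, 4.22, 2.03 and 3.78 CPM after ischemia (log2 fold change 1.27 ± 0.27, adjusted p = 0.0079). Again no library overlapped and libraries 5 and 7 were highest.

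Cdc6 was at 2.82, 3.05, 3.11 and 2.39 CPM in controls and at 3.96, 9.68, 4.84 and 8.10 CPM after ischemia (1.24 ± 0.28, adjusted p = 0.0114). Mcm3, a subunit of the replicative helicase, was at 7.37, 6.88, 5.19 and 4.36 CPM in controls and at 8.66, 20.5, 7.46 and 14.3 CPM after ischemia (1.11 ± 0.26, adjusted p = 0.0140), where library 6 lay just above the highest control. The genes past the adjusted p but short of the fold threshold were Mcm4 (0.74), Mcm6 (0.72, adjusted p = 0.0437), Ccna2 (0.86) and Prc1 (0.79). In 9 of the 45 genes (20%) all ischemia libraries lay above all controls and in none below, against 15.9% of all genes apart in either direction.

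Markers of division itself were not called. Mki67 was at 8.43, 6.49, 10.5 and 7.12 CPM in controls and at 8.11, 20.5, 7.94 and 21.1 CPM after ischemia (0.85 ± 0.36, adjusted p = 0.177), so that libraries 5 and 7 were high and libraries 4 and 6 within the range of the controls. Top2a showed the same split, with 6.83, 19.7, 9.20 and 17.8 CPM after ischemia against 5.30 to 9.33 CPM in controls (0.76). Ccne1 was at 2.06, 0.920, 4.20 and 2.53 CPM in controls and at 2.42, 4.52, 3.24 and 3.59 CPM after ischemia (0.52, adjusted p = 0.486). The other reference genes had log2 fold changes of 0.97 for Cdk1, 0.71 for E2f1, 0.49 for Ccnb1, 0.30 for Mcm2, 0.28 for Rrm2 and −0.34 for Pcna, none of them called.

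Marker genes of injured tubule, fibroblasts and principal cells, the last being cells that Hoxb7Cre labels, also changed in these libraries. Of the injured tubule markers, the paper reports Lcn2 in collecting duct cells, and Havcr1 and Krt20 as modulated in ischemic collecting duct RNA. All 3 injured tubule markers (Havcr1, Lcn2, Krt20) were called higher, with a summed level of 10.5 to 17.2 CPM in controls and 74.7, 414, 93.7 and 249 CPM in ischemia libraries 4, 5, 6 and 7. Fibroblast markers were called higher in 3 of 4, from 16.6 to 45.1 CPM in sum to 63.1, 183, 61.9 and 110 CPM, and 3 of 5 principal cell markers were called lower, while 0 of 11 leukocyte markers were called. Both sums were highest in libraries 5 and 7, the libraries in which the cell cycle genes were highest, and library 5 held the highest value of the 4 in 30 of the 45 genes. Their part in the result was not tested. Without library 5, 2 of the 4 calls were left, Mcm3 falling to 0.77 (adjusted p = 0.0852) and Cdc6 to 0.98 (adjusted p = 0.0583), and without control 5 Mcm3 was at 1.00, just under the threshold.

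**Figure D2:**
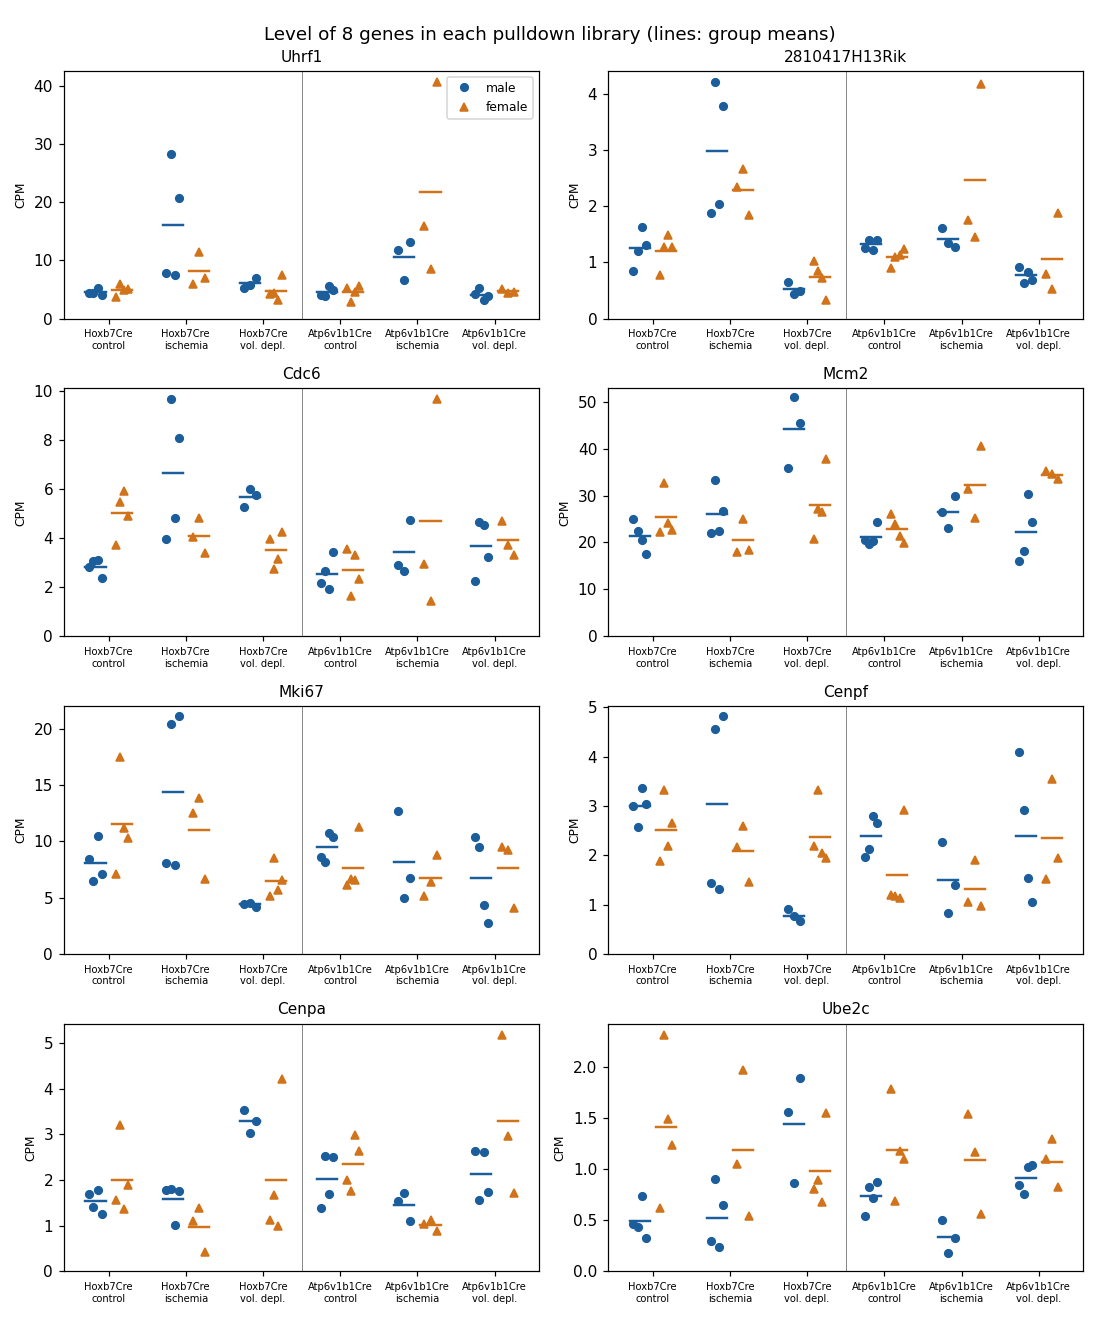
Level of 8 genes in CPM (y axis) in each pulldown library of mice of 5.5 months, by driver and treatment, with males as circles, females as triangles and lines at group means. Male Hoxb7Cre ischemia libraries separate from controls for Uhrf1 (7.46 to 28.3 against 3.98 to 5.19 CPM), while the male Hoxb7Cre volume depletion libraries lie above all male Hoxb7Cre controls for Cenpa and Mcm2.

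Among the other 94 cell cycle genes 3 were called higher after ischemia and 0 lower (backgrounds 1.52% and 0.784%), with a median of 0.29. They were E2f7 (2.42 ± 0.45, adjusted p = 0.00283) and E2f8 (2.35, adjusted p = 0.00943), the atypical E2F repressors, and Pole (1.52, adjusted p = 0.0102), the leading strand polymerase. Cdkn1a had a log2 fold change of 0.37 (adjusted p = 0.519) and Ccnd1 of −0.07 (adjusted p = 0.922). The 9 genes with E2F letters in the promoter all had positive log2 fold changes, held all 4 calls and had a median of 0.97. The median was 0.21 for the 19 genes with CHR letters and 0.28 for the 11 with neither. Log2 fold changes were positive in 17 of these 19 and in 9 of these 11 as well. Cdk1 and Mcm7 are in both of the first 2 sets. In that order the male medians were 0.44, −0.195 and −0.357 after Hoxb7Cre volume depletion and 0.42, −0.15 and 0.05 after Atp6v1b1Cre ischemia. Between the injuries in Hoxb7Cre they were −0.54, −0.34 and −0.71. The female minus male difference of the ischemia response was negative for all 9 in Hoxb7Cre and positive for all 9 in Atp6v1b1Cre. In the CHR set it was negative for 16 of 19 in Hoxb7Cre and positive for 13 of 19 in Atp6v1b1Cre. With neither set of letters these counts were 6 and 7 of 11, so the lean was not confined to the E2F set. Other genes with these letters were not examined.

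Volume depletion gave male Hoxb7Cre pulldowns calls in both directions, with Mcm2, Mcm5, Cdc6, Cenpa and Ube2c higher and 2810417H13Rik, Cenpf and Cdca8 lower. Of the 45 genes 5 were called higher and 3 lower, against 9.61% and 6.81% of all genes, and 9 and 6 passed the adjusted p alone, against 17.9% and 17.6%. The shares called were near those of all genes. The median log2 fold change was −0.16, with 22 positive and 23 negative. By role the median was 0.74 for origin licensing, −0.36 for the replication fork, 0.17 for mitotic cyclins and kinases, −0.82 for chromosome structure and −0.77 for the centromere group.

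Among the licensing genes Mcm2, a helicase subunit, was at 25.03, 22.5, 20.5 and 17.6 CPM in controls and at 35.8, 51.1 and 45.6 CPM after volume depletion (1.05 ± 0.19, adjusted p = 0.000198), with no overlap. Mcm5 rose by 1.08 ± 0.29 (adjusted p = 0.0055) and Cdc6 by 1.00 ± 0.30 (adjusted p = 0.0114), from 2.39 to 3.11 CPM in controls to 5.29, 6.01 and 5.76 CPM. Cdt1 (0.99, adjusted p = 0.014) and Mcm4 (0.74) passed the adjusted p alone, and Mcm7 (−0.43, adjusted p = 0.0343) was lower by that measure. Mcm6 was at −0.23. Cdc6 lay at the fold threshold and fell just under it without control 2 (1.00), control 5 (0.94), or volume depletion library 6 (0.97) or 7 (1.00), and without control 5 Mcm2 (0.97) and Mcm5 (0.90) fell under it too, leaving 5 of the 8 calls. Without library 6 Mcm2 was at 0.94.

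Of the genes called lower, Cenpf, a kinetochore protein of G2 and mitosis, was at 2.99, 2.57, 3.36 and 3.05 CPM in controls and at 0.906, 0.760 and 0.658 CPM after volume depletion (−1.94 ± 0.48, adjusted p = 0.0031). Cdca8, borealin of the chromosomal passenger complex, was at 1.73, 1.45, 1.58 and 1.69 CPM in controls and at 0.453, 0.434 and 0.658 CPM (−1.63 ± 0.34, adjusted p = 0.00072). Neither gene's groups overlapped, though after volume depletion the counts were only 9 to 16 a library for Cdca8 and 16 to 21 for Cenpf. 2810417H13Rik was at 0.654, 0.434 and 0.493 CPM against 0.843 to 1.63 CPM in controls (−1.24 ± 0.33, adjusted p = 0.0053), on 12 to 13 counts a library.

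The other mitotic calls went up. Ube2c was at 0.464, 0.436, 0.741 and 0.328 CPM in controls and at 1.56, 0.868 and 1.89 CPM after volume depletion (1.54 ± 0.40, adjusted p = 0.00434), on 7 to 15 counts a control library. Cenpa, the histone of the centromere, was at 1.69, 1.40, 1.78 and 1.27 CPM in controls and at 3.52, 3.04 and 3.29 CPM (1.10 ± 0.26, adjusted p = 0.00269). Both were apart from the controls in every library. In all, 25 of the 45 genes (55.6%) had no overlap between volume depletion and control, 14 higher and 11 lower, against 39.5% of all genes.

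Mki67 was at 4.43, 4.56 and 4.19 CPM after volume depletion, under all controls (6.49 to 10.5 CPM), but was not called (−0.88 ± 0.40, adjusted p = 0.0981). Top2a lay likewise at 4.28, 4.88 and 5.02 CPM, under all controls (−0.75, adjusted p = 0.139). Ccne1 was at 4.23, 4.09 and 4.19 CPM (0.78, adjusted p = 0.144), with one control above 2 of the 3 libraries. Of the other reference genes Pcna (0.64, adjusted p = 0.00706) passed the adjusted p alone, and the values were 0.60 for Rrm2, −0.22 for Ccnb1, −0.23 for Cdk1 and −0.32 for E2f1.

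The largest change in the wider set was in Cdkn1a, at 163, 94.7, 119 and 84.2 CPM in controls and at 739, 867 and 961 CPM after volume depletion (2.90 ± 0.32, adjusted p = 7.88e-07). Ccnd1 fell from 259 to 304 CPM in controls to 121, 103.8 and 107.8 CPM (−1.33 ± 0.23, adjusted p = 9.16e-05). Of the 94 further genes 5 were called higher and 7 lower (backgrounds 9.61% and 6.81%), with a median of −0.28. The others of largest change were E2f7 (2.27) and the helicase activator Mcm10 (1.36) among the higher ones, and Chek2 (−2.10), the condensin subunit Smc2 (−1.91) and the primase subunit Prim1 (−1.62) among the lower ones. The male Hoxb7Cre injury libraries all carry library numbers of one series, which controls 2 and 3 share and controls 4 and 5 do not. With the series as a term in the fit, 6 of the 45 genes were called after ischemia, the 4 among them. After volume depletion 12 were called, the 8 among them. No share of all genes is given beside these counts, so they are no result about the group. In the volume depletion comparison 4 of 5 principal cell markers and 3 of 5 intercalated cell markers were called lower and 2 of 5 endothelial markers higher, 2 leukocyte markers were called higher and 2 lower of 11, and no injured tubule marker was called (16.9, 22.3 and 17.6 CPM in sum). Their part in the result was not tested.

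**Figure D3:**
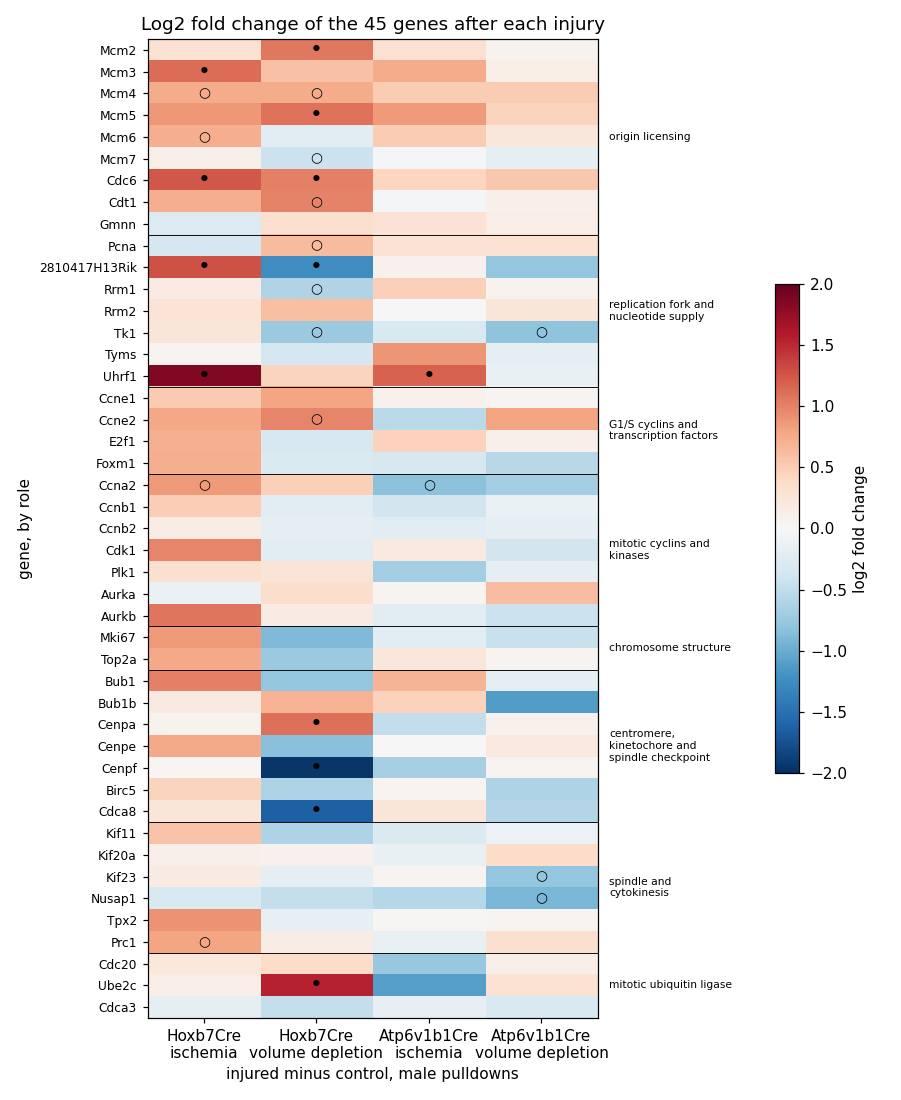
Log2 fold changes (color scale) of the 45 genes, ordered by role, in the injury comparisons of male pulldowns. A filled dot marks a called gene and an open dot one past the adjusted p alone. Calls after ischemia in Hoxb7Cre lie among licensing and fork genes (4 higher, 0 lower), and those after volume depletion go both ways (5 higher, 3 lower).

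Set directly against each other, the male Hoxb7Cre libraries held less RNA of 14 genes after volume depletion than after ischemia, among them Mki67, Top2a, Cenpf and Bub1, and more of Ube2c and Cenpa. These 14 and 2 of the 45 genes stood against 6.55% and 8.15% of all genes, and 19 and 5 passed the adjusted p alone (16.9% and 16.4%). The median log2 difference was −0.41, with 13 positive and 32 negative. The calls were lower for both genes of chromosome structure (median −1.62), 5 of 7 centromere genes (median −1.59) and 2 of 6 spindle genes. They were also lower for 2 of 7 fork genes and 1 of 7 mitotic cyclins and kinases. Among the 4 G1/S cyclins and transcription factors, E2f1 and Foxm1 were called lower. Origin licensing had 0 calls in either direction and a median of −0.001, with 4 of its 9 genes past the adjusted p alone. In 20 of 45 genes (44.4%) the groups did not overlap, near the 42.9% of all genes.

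2810417H13Rik showed the largest difference, with 0.654, 0.434 and 0.493 CPM after volume depletion against 1.88, 4.22, 2.03 and 3.78 CPM after ischemia (−2.52 ± 0.32, adjusted p = 5.58e-06 by edgeR's quasi-likelihood test). Cenpf was at 0.906, 0.760 and 0.658 CPM against 1.43, 4.56, 1.31 and 4.82 CPM (−1.99 ± 0.48, adjusted p = 0.00279). Cdca8 was at 0.453, 0.434 and 0.658 CPM against 1.29, 2.41, 1.79 and 2.03 CPM (−1.87 ± 0.34, adjusted p = 0.00021). None of the 3 overlapped. Bub1, a kinase of the spindle checkpoint, was at 0.201, 0.615 and 0.658 CPM against 0.544, 2.45, 1.26 and 2.56 CPM (−1.78 ± 0.49, adjusted p = 0.00715). Here ischemia library 4 lay within the volume depletion range. Bub1 rested on only 4 to 17 counts a library after volume depletion.

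Mki67 was lower in all 3 volume depletion libraries (4.19 to 4.56 CPM) than in any ischemia library (7.94 to 21.1 CPM), by −1.73 ± 0.41 (adjusted p = 0.00241), and Top2a by −1.51 ± 0.38 (adjusted p = 0.00428). The others called lower were the kinetochore motor Cenpe (−1.59), Uhrf1 (−1.41), Cdk1 (−1.20), the spindle motor Kif11 (−1.20), Birc5 (−1.07), Tpx2 (−1.06), E2f1 (−1.03) and Foxm1 (−1.02), the transcription factor of mitotic genes. Called higher were Ube2c (1.41 ± 0.39, adjusted p = 0.008) and Cenpa (1.03, adjusted p = 0.0047). Past the adjusted p alone were Pcna (0.98, adjusted p = 0.000197), Mcm2 (0.75) and Mcm6 (−0.95). Rrm2 (0.33), Ccne1 (0.26) and Ccnb1 (−0.71, adjusted p = 0.246) did not pass.

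**Figure D4:**
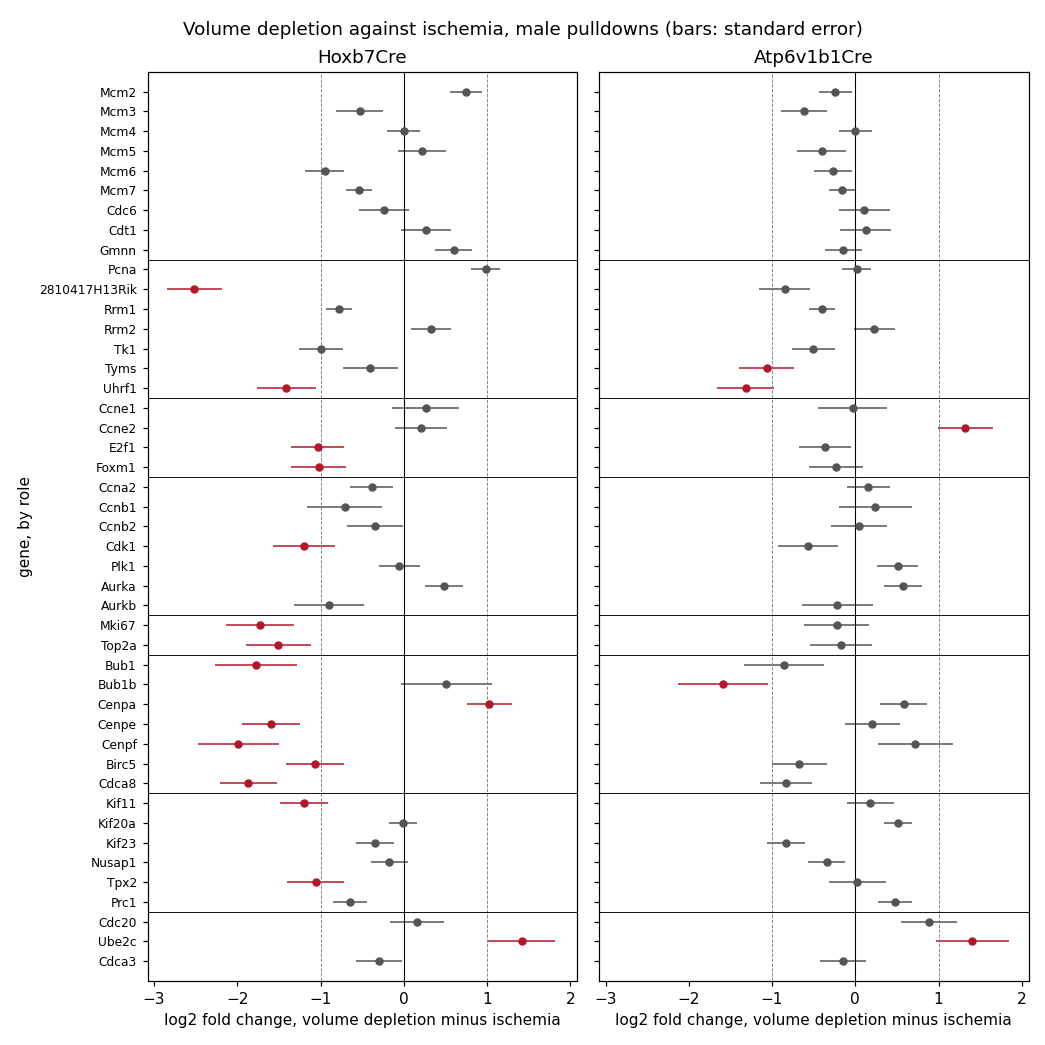
Log2 fold change of volume depletion against ischemia in male pulldowns for the 45 genes (bars are SE, red marks called genes, dashed lines at −1 and 1), for Hoxb7Cre and Atp6v1b1Cre. In Hoxb7Cre 14 genes lie past the line on the lower side and are called, led by 2810417H13Rik at −2.52, and in Atp6v1b1Cre 3 are.

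Calls near the threshold depended on single libraries. The count of 16 ran from 12 to 19 as each library in turn was left out. Without ischemia library 5 the calls of Cdk1 (−0.86), E2f1 (−0.91), Foxm1 (−0.80), Kif11 (−0.96), Tpx2 (−0.87) and Uhrf1 (−0.97) were lost, and without ischemia library 7 those of Cdk1 (−0.98), E2f1 (−0.89), Foxm1 (−0.96) and Tpx2 (−0.82). Without volume depletion library 4 those of Birc5 (−0.86), Cenpa (1.00), E2f1 (−0.85), Foxm1 (−0.71) and Tpx2 (−0.95) were lost, without library 6 those of Birc5 (−1.07, adjusted p = 0.06), Cdk1 (−1.02, adjusted p = 0.0838) and Tpx2 (−1.09, adjusted p = 0.053), without library 7 that of Ube2c (1.16, adjusted p = 0.0604), and without ischemia library 6 those of Birc5 (−0.99) and Cenpa (0.87). The calls of 2810417H13Rik, Cenpf, Cdca8, Bub1, Mki67, Cenpe and Top2a were kept in every such fit. The call of Foxm1 was kept under 2 of 9 other settings and was lost with DESeq2, with its size factors, with no filter and with filterByExpr, and that of E2f1 was lost with the size factors and with filterByExpr, by values just short of the fold threshold.

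All 3 injured tubule markers and 2 of 4 fibroblast markers were called lower in this contrast, and their part in it was not tested. In the wider set 2 of 94 genes were called higher and 24 lower (backgrounds 8.15% and 6.55%), with a median of −0.46. Those higher were Cdkn1a (2.53 ± 0.32, adjusted p = 3.69e-06) and Ccnd3 (1.00). The lowest were E2f8 (−2.40), Smc2 (−2.39) and Ect2 (−2.19), an exchange factor of cytokinesis, and Ccnd1 was at −1.26 (adjusted p = 0.000174). Of its 30 other mitotic genes 15 were called lower, with a median of −1.05.

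**Figure D5:**
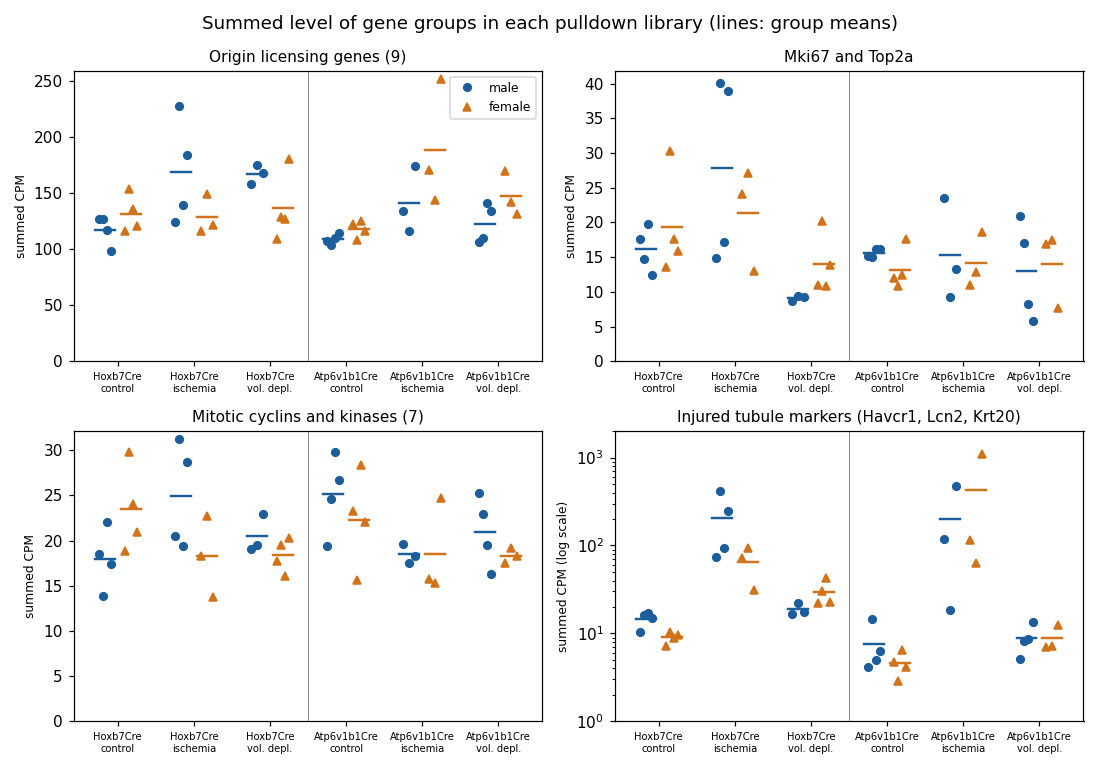
Summed level in CPM (y axes, the injured tubule panel on a log axis) of 9 origin licensing genes, of Mki67 with Top2a, of 7 mitotic cyclins and kinases, and of 3 injured tubule markers in each pulldown library by driver and treatment. In male Hoxb7Cre ischemia libraries the injured tubule sum runs from 74.7 to 414 CPM, and libraries 5 and 7 are highest for it and for Mki67 with Top2a.

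Male Atp6v1b1Cre pulldowns showed little change of the cell cycle genes against control. After ischemia 1 of the 45 was called higher and 0 lower (backgrounds 1.14% and 1.68%), the median was 0.03, and 12 had an unadjusted p under 0.05. That gene was Uhrf1, at 4.06, 3.97, 5.64 and 4.86 CPM in controls and at 11.8, 6.57 and 13.1 CPM after ischemia, above all controls (1.18 ± 0.34, adjusted p = 0.0342). Ccna2, cyclin A2, passed the adjusted p alone and was lower (−0.83, adjusted p = 0.0492), 1 gene where 4.74% of all genes were lower by that measure. The call of Uhrf1 was lost without control 6 (1.12, adjusted p = 0.0767), control 9 (1.11, 0.0916), control 11 (1.21, 0.0669), ischemia library 1 (1.09, 0.131) or ischemia library 5 (1.00, 0.0967), and without ischemia library 4 there were 2 calls.

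Mki67 was at 8.58, 8.18, 10.8 and 10.4 CPM in Atp6v1b1Cre controls and at 12.7, 4.95 and 6.77 CPM after ischemia, with libraries on both sides of the controls (−0.23, adjusted p = 0.797). Ccne1 was at 1.47, 1.89, 2.80 and 4.32 CPM and at 2.08, 2.31 and 4.10 CPM, which overlapped (0.09). The reference genes ran from −0.37 for Ccnb1 to 0.50 for Mcm6 (adjusted p = 0.178), with 0.31 for Mcm2, 0.30 for Pcna, 0.01 for Rrm2, 0.46 for E2f1, 0.20 for Cdk1 and 0.23 for Top2a. Of the 94 further genes the replication kinase Cdc7 (1.33), the ligase Lig1 (1.06) and Prim1 (1.03) were called higher and 0 lower. The backgrounds were 1.14% and 1.68%. Cdkn1a (0.04) and Ccnd1 (−0.02) were near 0. All 3 injured tubule markers were called higher, with a sum of 117, 18.5 and 469 CPM in libraries 1, 4 and 5, and their part was not tested.

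After volume depletion in Atp6v1b1Cre, edgeR called 0 of the 45 genes and DESeq2 called 0, against 5.15% of all genes, with 10 at an unadjusted p under 0.05 and a median of 0.05. Past the adjusted p alone and lower (6.47% of all genes) were 3 genes, Nusap1 (−0.91, adjusted p = 0.00533), Tk1 (−0.81, adjusted p = 0.0258) and Kif23 (−0.77, adjusted p = 0.0168). Mki67 was at 10.4, 9.54, 4.35 and 2.78 CPM in libraries 1, 2, 6 and 7 (−0.45, adjusted p = 0.45). Of these, 2 lay within and 2 under the control range. Ccne1 was at 1.55, 2.09, 3.71 and 3.76 CPM, within it (0.06). Libraries 1 and 2 carry numbers of another series than 6 and 7, and Cdkn1a, given below, split likewise. Proximal tubule markers summed to 3861 and 3264 CPM in libraries 1 and 2 and to 1201 and 944 CPM in 6 and 7. Their part was not tested. The other reference genes had log2 fold changes of 0.31 for Pcna, 0.24 for Rrm2, 0.23 for Mcm6, 0.10 for E2f1, 0.07 for Mcm2, 0.05 for Top2a, −0.13 for Ccnb1 and −0.37 for Cdk1. Leaving out control 10 or volume depletion library 2 gave 1 call in place of 0. Cdkn1a rose from 118, 185, 92.3 and 157 CPM to 169, 350, 414 and 538 CPM (1.43 ± 0.29, adjusted p = 0.00257), Cdkn2b, another CDK inhibitor, by 1.14, and Ccnd1 fell from 281, 245, 360 and 190 CPM to 127, 148, 66.5 and 86.4 CPM (−1.31 ± 0.21, adjusted p = 0.000327). These were the 3 calls in the wider set, and 2 of 5 intercalated cell markers were called lower.

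Between the injuries, male Atp6v1b1Cre libraries differed in 5 of the 45 genes, 2 higher and 3 lower after volume depletion (backgrounds 7.16% and 4.39%), with a median of −0.15. Ccne2 was at 3.66, 4.04, 8.57 and 9.09 CPM after volume depletion and at 1.90, 2.59 and 3.16 CPM after ischemia (1.32 ± 0.33, adjusted p = 0.00431). Uhrf1 was at 4.16, 5.30, 3.20 and 3.82 CPM against 11.8, 6.57 and 13.1 CPM (−1.32 ± 0.34, adjusted p = 0.0058). Neither overlapped, and both calls were kept whichever library was left out. The Ccne2 values after volume depletion split by library series, lower in libraries 1 and 2 than in 6 and 7.

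Bub1b was at 2.71, 2.45, 1.28 and 0.347 CPM after volume depletion against 6.06, 7.49 and 2.75 CPM after ischemia (−1.59 ± 0.54, adjusted p = 0.0297), Ube2c at 0.845, 0.762, 1.02 and 1.04 CPM against 0.502, 0.185 and 0.328 CPM (1.41 ± 0.44, adjusted p = 0.0185, on 4 to 24 counts a library), and Tyms was lower by −1.07 ± 0.32 (adjusted p = 0.0167), a call that was lost with the library series as a term. Without ischemia library 1 or 4, or volume depletion library 6, 3 calls were left. The 10 reference genes ran from −0.57 for Cdk1 to 0.24 for Ccnb1, with Mki67 at −0.23 and Ccne1 at −0.03, and none passed (lowest adjusted p = 0.264). In the wider set of 94 genes 4 were called higher and 6 lower (backgrounds 7.16% and 4.39%). Cdkn1a (1.39), Mcm10 (1.36) and Cdk6 (1.23) were highest, and Chek2 (−1.84), Prim1 (−1.71) and Smc2 (−1.67) lowest. Ccnd1 was at −1.29. All 3 injured tubule, 2 of 4 fibroblast and 3 of 5 intercalated cell markers were called lower, and their part was not tested.

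Whether the drivers differed in their response was tested by subtracting the Hoxb7Cre log2 fold change from that of Atp6v1b1Cre. For ischemia 1 of the 45 genes was called (3.49% of all genes), Ccna2. It was at 4.76, 3.15, 5.48 and 3.80 CPM in Hoxb7Cre controls and at 7.42, 8.39, 6.59 and 8.41 CPM after ischemia, and was at 5.28, 8.71, 14.5 and 7.20 CPM in Atp6v1b1Cre controls and at 4.23, 6.43 and 4.51 CPM after ischemia, a difference of −1.68 ± 0.35 (adjusted p = 0.00772). The median difference was −0.43 against 0 over all genes, with 36 of 45 negative, and the reference genes ran from −1.07 for Mki67 to 0.64 for Pcna (lowest adjusted p = 0.109). Leaving out 1 library gave 1 to 3 calls, 3 without Atp6v1b1Cre control 6 or Hoxb7Cre control 4, and 2 without Atp6v1b1Cre control 9 or ischemia library 5 or Hoxb7Cre ischemia library 4 or 6. In the wider set E2f7 (−2.42), Mcm10 (−1.27) and Anln (−1.10) were called lower and Cdkn2b (1.48) and Chek2 (1.37) higher, with Cdkn1a at −0.33 and Ccnd1 at 0.05.

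For volume depletion edgeR called 0 of the 45 genes (2.93% of all genes), 10 had an unadjusted p under 0.05, and DESeq2 called 2, Cenpf and Ccna2. Mcm2 passed the adjusted p alone (−0.98, adjusted p = 0.0362), and the reference genes ran from Mcm2 to Top2a at 0.80. Cdkn1a differed by −1.47 (adjusted p = 0.0502) and Ccnd1 by 0.02. Leaving out 1 library gave 0 to 2 calls, 2 without Atp6v1b1Cre volume depletion library 7, and 1 without Atp6v1b1Cre control 6 or 10 or volume depletion library 6, or Hoxb7Cre control 2 or 4 or volume depletion library 4. With the series of library numbers as a term, 6 genes were called for ischemia and 5 for volume depletion. These counts too stand without a share of all genes. Apart from Ccna2 no driver difference passed the main test, which does not show that the drivers respond alike.

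The female libraries of the same age gave other calls. In 1 fit of both sexes, Hoxb7Cre had 2 called genes after ischemia, 0 after volume depletion and 7 between the injuries. No share of all genes is given for that fit, so these counts are no result about the group. In female Hoxb7Cre pulldowns 1 of 45 genes was called after ischemia (2.08% of all genes) and 0 by edgeR after volume depletion (0.0992%, 21 genes in all, with 7 of the 45 at an unadjusted p under 0.05). The call was E2f1, at 1.44, 1.87, 1.62 and 1.50 CPM in controls and at 3.16, 4.12 and 3.51 CPM after ischemia (1.17, adjusted p = 0.0385). In female Atp6v1b1Cre pulldowns 4 of 45 were called after ischemia (1.15%), all higher. They were Uhrf1 (2.23, adjusted p = 0.00745), at 5.28, 2.85, 4.53 and 5.65 CPM in controls and at 16.0, 8.58 and 40.7 CPM after ischemia, E2f1 (1.46), Mcm3 (1.39) and Mcm5 (1.38). In these 3 ischemia libraries the injured tubule markers summed to 116, 63.5 and 1106 CPM, highest where Uhrf1 was highest, and their part was not tested. After volume depletion 4 were called (9.89%), Ccne2 higher (1.56), and Kif23 (−1.77), Nusap1 (−1.20) and Cdca8 (−1.11) lower.

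Between the injuries, female Hoxb7Cre libraries had 2 calls (2.61% of all genes), 2810417H13Rik (−1.64, adjusted p = 0.0414) and E2f1 (−1.13), both lower after volume depletion. Female Atp6v1b1Cre libraries had 8 (19.9%), with Uhrf1 (−2.19), E2f1 (−1.80), Cdca8 (−1.66), Kif23 (−1.60), Mcm3 (−1.44) and Mcm6 (−1.25) lower, and Ccne2 (2.09) and Cenpa (1.71) higher. Mki67 in Hoxb7Cre was at 7.15, 17.5, 11.2 and 10.3 CPM in female controls, at 12.5, 13.9 and 6.64 CPM after ischemia, and at 5.19, 8.50, 5.71 and 6.55 CPM after volume depletion, all of which overlapped. In this contrast 2810417H13Rik and E2f1 in Hoxb7Cre, and Uhrf1 and Ccne2 in Atp6v1b1Cre, were thus called in one direction in both sexes fitted apart. The male call of E2f1 was lost under some settings, as given above.

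The difference of the sexes itself (female minus male log2 fold change) was called for few genes. In Hoxb7Cre 1 of 45 was called for ischemia (6.98% of all genes), Cdc6, at 3.74, 5.49, 5.93 and 4.90 CPM in female controls and at 4.04, 4.82 and 3.40 CPM after ischemia, where males rose (−1.54 ± 0.51, adjusted p = 0.0476). For volume depletion 4 were called (10.8%), Ube2c (−2.08, adjusted p = 0.0190), Cdc6 (−1.52, adjusted p = 0.0368), Cenpf (1.85, adjusted p = 0.0328) and Cdca8 (1.28, adjusted p = 0.0489). Female Cenpf was at 1.89, 3.33, 2.19 and 2.66 CPM in controls and at 2.19, 3.33, 2.05 and 1.94 CPM after volume depletion, which overlapped, and female Ube2c at 0.616, 2.32, 1.49 and 1.23 CPM and at 0.803, 0.899, 0.683 and 1.55 CPM. Female Cdca8 ran from 0.698 to 1.7998 CPM in controls and from 0.696 to 1.29 CPM after volume depletion.

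These calls were sensitive to single libraries, with 0 to 5 calls for ischemia and 0 to 9 for volume depletion as each library was left out. For ischemia 5 were called without control 1, 2 without control 4 or ischemia library 4, and 0 without any one of controls 2, 3, 5, 6, 9 and 10 and ischemia libraries 3, 5 and 7. For volume depletion 9 were called without library 5, 2 without control 2, 3, 5, 9 or 10, 1 without control 6 or library 1, 2 or 6, and 0 without library 3 or 7. Of the named calls, that of Cdc6 for ischemia was kept in 3 of these 15 fits, and the calls made without control 4 or ischemia library 1 or 2 were of other genes. For volume depletion the call of Ube2c was kept in 12 of 15, of Cenpf in 9, of Cdc6 in 4 and of Cdca8 in 2. Cdc6 for ischemia and Cdca8 also lost their calls with DESeq2 size factors and with no filter, and Cdc6 for ischemia with the library series as a term. The reference genes ran from −1.14 for Ccnb1 to 0.44 for E2f1 for ischemia, and from −1.24 for Ccne1 to 0.69 for Top2a for volume depletion. Cdkn1a differed between the sexes by −1.88 (adjusted p = 0.0193) and −2.06 (adjusted p = 0.00739), and Ccnd1 by 1.23 (adjusted p = 0.0283) and 1.13 (adjusted p = 0.0345). The wider set's largest differences were in E2f7 (−3.64), Mcm10 (−2.03), Orc1 (−1.96) and Chek2 (1.71) for ischemia, and in E2f7 (−2.72), Mcm10 (−1.96), Chek2 (2.10) and Ect2 (1.99) for volume depletion. The summed principal cell markers ran from 1045 to 2345 CPM in female and from 2608 to 3322 CPM in male Hoxb7Cre controls, and the female minus male difference was called above 0 for 4 of 5 of these markers after ischemia and for 5 of 5 after volume depletion. Their part in the sex differences was not tested.

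In Atp6v1b1Cre edgeR called 0 of the 45 genes for the sex difference of either injury, as it did of all genes (0%), with 2 and 4 at an unadjusted p under 0.05 and 0 by DESeq2. The reference genes ran from 0.00 for Pcna to 0.99 for E2f1 for ischemia and from −0.55 for Mcm6 to 0.54 for Mcm2 for volume depletion. Cdkn1a was at −0.23 and −0.10 and Ccnd1 at 0.19 and −0.39. Between control mice of 3 and 5.5 months edgeR and DESeq2 called 0 of the 45 in pulldowns (0% of all genes) and in total RNA (0.264%), with 1 and 4 at an unadjusted p under 0.05. The reference genes ran from −0.16 for Mki67 to 0.46 for Ccne1 in pulldowns and from −0.08 for Top2a to 0.38 for Ccne1 in total RNA (3 minus 5.5 months). Cdkn1a was at −0.19 and −0.37 and Ccnd1 at 0.02 and −0.10 in these age comparisons, and none was called.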

How the data were processed

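RNA sequencing counts per gene were analysed for 69 mouse kidney libraries, 48 pulldowns of 4-TU labelled RNA and 21 of total RNA. The authors deposited 1 table of raw read counts. According to the methods and the submitters' processing notes, poly(A) libraries (TruSeq RNA kit) were sequenced on an Illumina HiSeq, base calls were made with CASAVA 1.8.2, reads were trimmed with Trimmomatic 0.36 and aligned to mm10 with STAR 2.5.3a, and genes were counted with HTSeq 0.6.1p2 at its default settings. The annotation is not given in the sources used here. Reads without molecular identifiers are not independent molecules, so counts of low genes also carry amplification error.

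Genes with at least 2 counts in total were kept (21175 of 24411). Counts were scaled by TMM and tested with edgeR 4.0.16 (quasi-likelihood test, R 4.3.3, limma 3.58.1), p-values were adjusted by Benjamini-Hochberg over all tested genes, and a gene was called at an adjusted p under 0.05 with a log2 fold change of 1 or more either way. Injury comparisons and driver differences came from 1 fit of the 22 male pulldown libraries of 5.5 months in 6 groups. Sex differences came from the 43 pulldowns of that age. Pulldown, driver and age comparisons came from the 42 controls with sex as a covariate. No term in the main fits paired a pulldown with a total RNA library, so p-values against total RNA take no account of shared mice. Levels are CPM on TMM-scaled library sizes. The edgeR fits were tested on simulated counts. The members and gene lists were chosen with earlier results of these data known. All 45 genes are accounted for. Up to 15 called genes of largest change were named per comparison, 10 reference genes (Mki67, Top2a, Cdk1, Ccnb1, Mcm2, Mcm6, Pcna, Rrm2, Ccne1, E2f1) were given in every comparison, per-library values were given for up to 4 called genes with at least 10 counts on average and for Mki67 and Ccne1, and Cdkn1a, Ccnd1 and up to 3 highest and 3 lowest called genes were named from the 94 others. Mcm2, Mcm5, Top2a, Cenpa and the female fit's values were added after they were seen.

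Alternatives were DESeq2 1.42.0, DESeq2 size factors, no filter or edgeR's filterByExpr on low counts, both sexes, females or (for controls) males alone, mice of 5.5 months alone for control comparisons, the library series, no fold threshold, the replicate number as a block and leaving out each library. Where a count of called genes under an alternative is printed without the share of all genes, it is no result about the group. Figures were drawn with matplotlib 3.10.9 in Python 3.11.15.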

Additional observations from a re-analysis of the deposited data

Results flagged for a closer look

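In 279 sets of libraries of one group (31 genes), 11 held a library far from the others of its group. That is fewer than the about 1 in 20 that chance gives, so they are listed as descriptions and not as results. Top2a and Pcna stood apart in Hoxb7Cre female control 6, at 12.8 CPM (others 5.52 to 6.45) and 57.7 CPM (39 to 41.1), and Kif23 in female control 1 at 123 CPM (217 to 230). Mki67 and Cenpf stood apart in Atp6v1b1Cre female control 13, at 11.3 CPM (6.13 to 6.65) and 2.92 CPM (1.13 to 1.19), and Cdca8 in male control 6 at 2.14 CPM (1.07 to 1.19). After injury Cenpa stood apart in male Hoxb7Cre ischemia library 6 at 1.02 CPM (1.76 to 1.81) and Mcm5 in female Hoxb7Cre volume depletion library 5 at 16.9 CPM (6.21 to 7.63). In total RNA Top2a was at 5.96 CPM in control 12 (1.75 to 3.40), Cenpe at 4.76 CPM in control 8 (1.8 to 3.12) and Plk1 at 4.13 CPM in control 11 (2.28 to 3.06).

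Of the differences between responses, the driver difference of Ccna2 after ischemia was −1.68 (adjusted p = 0.00772). The sex differences in Hoxb7Cre were −1.54 for Cdc6 after ischemia (adjusted p = 0.0476) and, after volume depletion, −1.52 for Cdc6 (adjusted p = 0.0368), 1.85 for Cenpf (adjusted p = 0.0328), 1.28 for Cdca8 (adjusted p = 0.0489) and −2.08 for Ube2c (adjusted p = 0.0190). The cause of none of them was tested.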

How the results depend on the processing

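Of the counts of called genes under other settings 38 differed from the main count by over 1.5 times. These counts are given here without the share of all genes called, so they are no result about the group. Of the values of single genes, 1770 stayed on their side of the threshold, 87 lost the call and 41 gained one. Reference genes called in neither fit are among the 1770. Direction was compared only where a gene was called in either fit, and 7 such values reversed. Fits that left out 1 library are not in these counts and lost 90 calls. For Hoxb7Cre ischemia the main 4 calls became 2 with both sexes, 1 in females alone and 8 without the fold threshold. For Hoxb7Cre volume depletion the 8 became 0 with both sexes, 0 in females and 15 without the fold threshold, and for volume depletion against ischemia the 16 became 7 with both sexes and 2 in females. For Atp6v1b1Cre ischemia the 1 became 4 with both sexes, 4 in females and 2 without the fold threshold, for volume depletion the 0 became 3, 4 and 3, and between the injuries the 5 became 9, 8 and 9. The driver difference of ischemia (1) became 3 with DESeq2, 0 in females, 6 with the library series and 2 without the fold threshold, and that of volume depletion (0) became 2 with DESeq2, 5 with the series and 1 without the fold threshold. Against total RNA the 8 and 9 calls became 35 and 36 without the fold threshold. The Hoxb7Cre sex difference of ischemia (1) became 3 with DESeq2, 0 with its size factors, 2 with the series and 0 without the filter, and that of volume depletion (4) became 7 with the series.

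The called values that reversed did so in females alone. For Hoxb7Cre ischemia Cdc6 was at −0.29. For Hoxb7Cre volume depletion Cdc6 was at −0.51, Cenpa at −0.0078 and Ube2c at −0.53. Between the injuries Cenpf was at 0.19 and Ube2c at −0.27 in Hoxb7Cre, and Ube2c was at −0.0039 in Atp6v1b1Cre. Leaving out 1 library gave 2 to 6 calls for Hoxb7Cre ischemia, 5 to 11 for volume depletion and 12 to 19 between the injuries, 0 to 2, 0 to 1 and 3 to 6 for Atp6v1b1Cre, 1 to 3 and 0 to 2 for the driver differences, 0 to 5 and 0 to 9 for the Hoxb7Cre sex differences, and 0 to 0 for the Atp6v1b1Cre sex and the age differences. The cause of these changes was not tested. The ranges of calls stand without a share of all genes, so they are no result about the group.

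Deviations of same-numbered male libraries had a mean r of −0.177 over 2 pairs in Hoxb7Cre ischemia and −0.08 over 1 pair in volume depletion. Between the injuries in Hoxb7Cre it was −0.015 over 3 pairs. In Atp6v1b1Cre it was −0.418 over 1 pair in volume depletion and 0.193 over 1 pair between the injuries. These pairs are too few to show whether the numbers pair the libraries, and pulldowns were not compared with total RNA. With the replicate number as a block the calls were 4 for Hoxb7Cre volume depletion and 10 for Hoxb7Cre between the injuries. In Atp6v1b1Cre they were 0 for ischemia and 3 for volume depletion. They were 0 for the ischemia driver difference and both Hoxb7Cre sex differences. No share of all genes is given beside these block counts, so they are no result about the group. Depth limits Ube2c, Cdca8 and 2810417H13Rik, which rest on under 25 counts in many libraries. In male Hoxb7Cre volume depletion libraries it also limits Bub1 (4 to 17 counts) and Cenpf (16 to 21 counts). Bub1b fell to 6 counts in male Atp6v1b1Cre volume depletion.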
